A study of Mus musculus with 57 samples.

Results

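Glycolysis and glucose uptake were described through 10 genes in 56 single mouse T helper 2 (Th2) cells. The genes were taken by name from the deposited table of 10565 genes, where their rows are slc2a1, slc2a3, hk2, gpi1, aldoa, tpi1, gapdh, pgk1, eno1 and ldha, and all 10 were found. The cells were wild type, from spleens of C57BL/6 mice aged 8 weeks. CD4+ cells were activated through CD3 and CD28, driven to the Th2 fate with IL-4 and an antibody to IFNγ, given IL-2 after 2 days, kept in culture for 5 days in all, restimulated with antibodies to CD3 and CD28, and captured on a Fluidigm C1, a microfluidic instrument that isolates single cells. The titles number the cells in 5 sets, T1 with 8 cells and T2 to T5 with 12 each; the labels do not say what a set is, and it may be a batch. A pooled sample was not analysed here.

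Glucose enters T cells through facilitative transporters and is phosphorylated by hexokinase, which keeps it inside the cell. The enzymes of glycolysis then turn it into pyruvate, and lactate dehydrogenase reduces pyruvate to lactate. Activated T cells are known to raise glucose uptake and lactate production while they grow and divide.

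The cells form 1 group and no label names animals or cultures, so they count as 1 sample: values below describe these cells, with no p-value. The values are TPM, a relative transcript level that is per length, rounded by the authors. Depth is unknown, and a value of 0 is given as listed at 0. Genes detected (1 TPM or more) numbered 4743.5 per cell at the median, from 2679 in T4_3 to 8396 in T3_5, and 55.4% of all values were 0. Cell T3_2 was unusual in that Mtrnr2l, a humanin-like gene, made up 20.1% of its TPM, and cell T3_5 in its gene number, the next being 6983. T cell and Th2 genes were present, with Cd3d and Gata3 in 56 of 56 cells and Cd4 in 37. Of other lineages, the B cell list had only Cd74 in the table (32 cells, median 7 TPM), and Cd68, Cpa3, Cd8b1 and Alas2 were in 10, 5, 1 and 2 cells. Their part in the results was not tested.

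Aldoa and Ldha dominated. Aldoa, the aldolase that splits fructose bisphosphate, was listed from 37 to 4965 TPM with a median of 1918.5, and averaged 1966 TPM (SD 979, n = 56 cells). Ldha, the lactate dehydrogenase subunit that favours lactate formation, ran from 15 to 5996 TPM with a median of 973.5 and averaged 1139 TPM (SD 988). Together they made up 76.2% of the TPM of the 10 genes, and both were in 56 of 56 cells, a share of 100% with an exact Clopper-Pearson 95% interval from 93.6% (counting error only, as for all intervals here). The lowest Aldoa value was in T3_2, the cell with the high Mtrnr2l share. The highest Ldha value, in T3_7, stood well above the next, 3282 TPM in T3_3.

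Hk2, the inducible hexokinase of activated T cells, was also in 56 of 56 cells, from 1 TPM in T3_1 to 1353 TPM in T2_3, with a median of 268.5 and a mean of 385 TPM (SD 366). Gpi1, the isomerase that makes fructose phosphate, was in 50 cells, up to 584 TPM, with a median of 150 and a mean of 175 TPM (SD 156). Tpi1, which interconverts the triose phosphates, was in 50 cells, up to 1323 TPM, with a median of 67 and a mean of 215 TPM (SD 311). The mean of Tpi1 lay far above its median, so a few cells carried much of it.

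Pgk1, the kinase of the first ATP-forming step, was in 55 cells, up to 460 TPM in T4_9, with a median of 83.5 and a mean of 102 TPM (SD 78.9). Gapdh, which oxidises glyceraldehyde phosphate, was in 54 cells, up to 147 TPM, with a median of 19 and a mean of only 29.3 TPM (SD 33.4). Eno1, the enolase before pyruvate kinase, was in 29 cells, up to 59 TPM, with a median of 1 and a mean of 9.54 TPM (SD 14.6). These 3 enzymes have the least sequence of their own among the 10 genes, and their levels are uncertain for that reason, with the values given further on.

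The transporters were sparse. Slc2a1 (GLUT1, the main basal glucose transporter) was in 26 of 56 cells, a share of 46.4% (95% interval 32.99% to 60.3%), with a median of 0, a highest value of 739 TPM in T3_1 and a mean of 42.8 TPM (SD 132). Slc2a3 (GLUT3, a high-affinity transporter) was in 10 cells, 17.9% (8.91% to 30.4%), with a median of 0, a highest value of 265 TPM, again in T3_1, and a mean of 10.6 TPM (SD 42.6). T3_1 alone held 30.9% of all Slc2a1 TPM and 44.6% of all Slc2a3 TPM; the same cell had the lowest Hk2 value and Eno1 listed at 0.

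**Figure D1:**
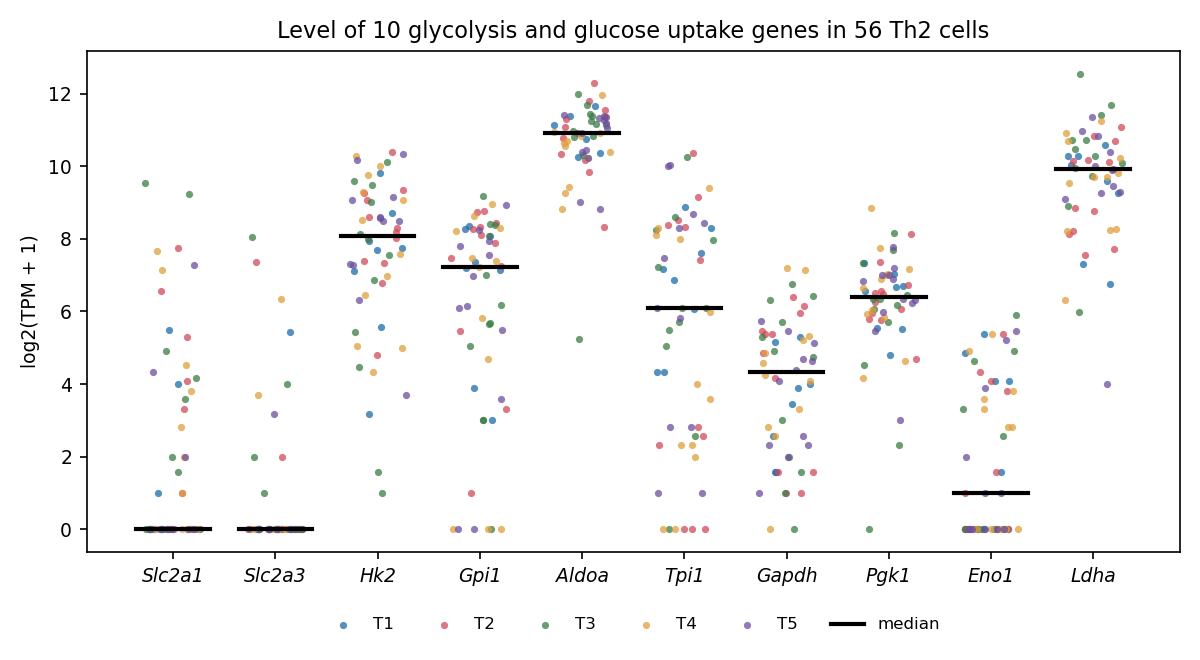
Level of each gene in each of 56 cells on a log2(TPM + 1) axis, coloured by set, with the median as a black bar. Aldoa and Ldha lie highest, with medians of 1918.5 and 973.5 TPM, while Slc2a1 and Slc2a3 are listed at 0 in 30 and 46 cells.

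Set in order of their means, some neighbours kept their order within most cells and others did not. Aldoa was above Ldha in 45 of 56 cells, Ldha above Hk2 in 45, and Hk2 above Tpi1 in 38. Tpi1 was above Gpi1 in only 29 cells and below it in 24, and Gpi1 was above Pgk1 in 32 and below in 23, so these 3 were not ordered beyond their spread. Slc2a1 averaged more than Gapdh but was below it in 42 cells, and Slc2a3 averaged more than Eno1 but was below it in 27 and above it in 8. Both transporters had a median of 0.

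Per cell, the 10 genes summed to a median of 3654 TPM, from 141 TPM in T3_2 to 10043 TPM in T3_7. The median of the sum by set was 5246.5 TPM in T3 and between 3341.5 and 3920 TPM in the others. A cell had 8 of the genes at the median, 3 in T3_2 and 10 in 4 cells.

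Gapdh, Pgk1 and Eno1 share most of their sequence with other loci, which bears on how their reads could be assigned. Each transcript was read in 50-base words against all transcripts of GENCODE vM21, a later build than that of the deposited values; the read length and the handling of reads that match several places are not given in the sources used here. For Gapdh 17.5% of the words were found at no other locus, for Eno1 27.8% and for Pgk1 32.04%. The share was 80.4% for Gpi1, 82.9% for Ldha, 86.5% for Aldoa, 92.5% for Tpi1 and 100% for Hk2, Slc2a1 and Slc2a3. Gapdh words were found at 222 other loci, 213 of them annotated as pseudogenes, and 0 of its 950 coding words were free of a match; for Pgk1 this was 0 of 1202. Gpi1 words were found at 121 other loci, but only 1 of these shared 10% or more of them. The transcript used carries a CCDS entry and is the principal isoform, a rule chosen after seeing values under 2 others. Under the longest coding sequence Gapdh came to 9.56% of words, with 60 of 1028 coding words free of a match, and Ldha to 83.4%; with the principal isoform alone a short transcript of a second locus stood for Aldoa, at 100%. The other 7 genes had the same share under all 3 rules.

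The words below were picked from a part of the coding words, not from all of them. Words not whole within 1 coding exon, and words shared with some of the other loci, were left out first. Within that part they are the Gapdh words found at the most and the fewest other loci, and the Pgk1 word found at the fewest. Over all coding words the most and the fewest may differ. They are 5′ to 3′ on the gene's strand in GRCm38, at chr6:125162898-125162947 and chr6:125163387-125163436 for Gapdh and chrX:106187251-106187300 for Pgk1, each within 1 coding exon. No letter is capitalised, since the whole word matches.
Gapdh, at 84 other loci: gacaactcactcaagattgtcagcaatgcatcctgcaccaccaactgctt
Gapdh, at 10 other loci: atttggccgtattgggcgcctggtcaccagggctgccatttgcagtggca
Pgk1, at 1 other locus: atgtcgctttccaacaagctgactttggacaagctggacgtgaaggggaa

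A copy of Eno1 was in the table and read higher than the gene. Gm5506, which the current annotation calls Eno1b and which shares 70.5% of the words of Eno1, was in 55 cells, from 0 to 89 TPM with a median of 23 and a mean of 26.2 TPM (SD 21.03). It was above Eno1 in 47 cells and below it in 6; 26 cells had the copy without the gene and 0 the gene without the copy. The sum of both rows was detected in 55 cells and averaged 35.7 TPM (SD 31.95). Aldoart1, which shares 6.27% of the words of Aldoa, was in 53 cells at a mean of 6.18 TPM and ran with Aldoa at a Spearman rho of 0.89 over 56 cells. The levels of Gapdh, Pgk1, Eno1 and both copies are therefore uncertain. Of the other loci of Gapdh, 1 had a row, 3000002C10Rik, in 21 cells at a mean of 16.1 TPM with a rho of 0.13 with Gapdh. The part of shared reads in these levels was not tested.

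**Figure D2:**
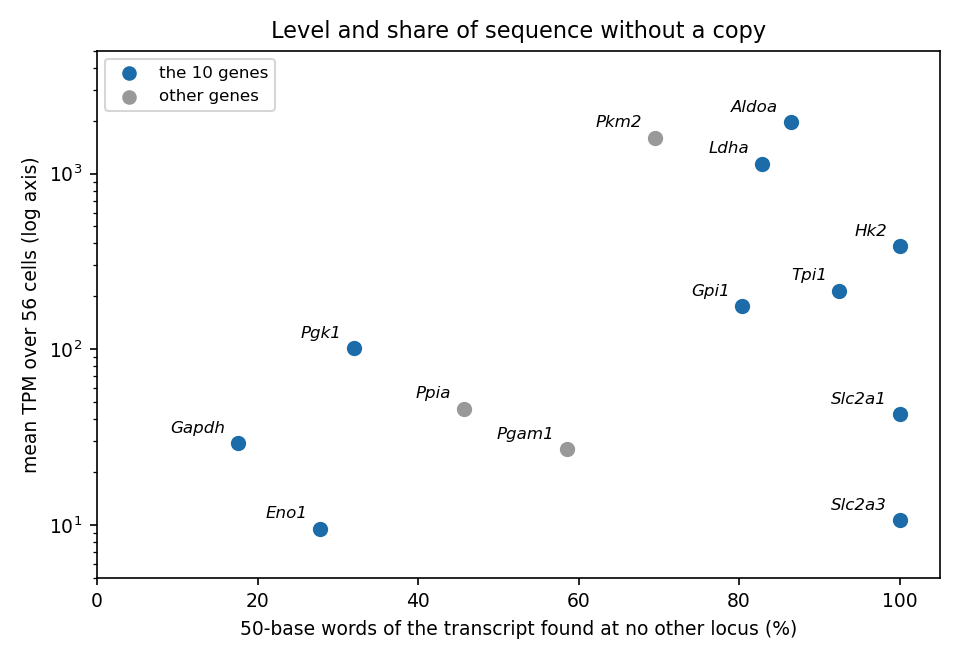
Mean TPM over 56 cells (log axis) against the percent of each transcript's 50-base words found at no other locus, for the 10 genes in blue and Pkm2, Pgam1 and Ppia in grey. Gapdh, Eno1 and Pgk1 lie at the left with 17.5%, 27.8% and 32.04%, while Slc2a1 and Slc2a3 have a low mean with 100%.

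Variation between cells was measured as the squared coefficient of variation, and its excess as log2 of that value minus the running median of the 100 genes nearest in mean; above 1 or below -1 was called. Slc2a1 had an excess of 1.25 and Ldha of 1.08, so 2 of the 10 genes were called above, against 13% of the 7871 genes detected in at least 10 cells. Pgk1 (-1.83), Gapdh (-2.02) and Eno1 (-2.15) were called below, 3 of 10 against 15% of those genes. These 3 are the genes whose levels are uncertain because of shared sequence, so their spread between cells is uncertain too. The part of shared reads in it was not tested. The other values were 0.85 for Slc2a3, 0.66 for Tpi1, 0.10 for Hk2, -0.04 for Aldoa and -0.92 for Gpi1. The median of the 10 was 0.03, beside -0.00 over all other genes, and all 10 had passed the filter. Without the highest cell of each gene Ldha came to 0.68 and was no longer called, while Slc2a3 came to 1.33 and was, so 2 genes were again above 1; without set T3 Slc2a1 came to -0.080. On the SD of log2(TPM + 1) Slc2a1 came to -0.071, Ldha to -0.066, Eno1 to 0.14 and Gapdh to -0.75, so of the 5 genes called only Pgk1, at -1.67, was past a threshold.

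The genes varied together only weakly. Over the 45 pairs the mean Spearman rho was 0.14 and the median 0.16, beside a median of 0.04 over all pairs of genes; 39 pairs were above 0. A rho of at least 0.3 was reached by 4 pairs, 8.89%, against 3.11% of all pairs, and none of the 45 was at -0.3 or lower, against 0.518%. The 4 were Gapdh with Ldha (0.33), Aldoa with Ldha (0.32), Tpi1 with Gapdh (0.30) and Gpi1 with Gapdh (0.30). Leaving out cells T3_2 and T3_5 brought them to 0.29, 0.29, 0.26 and 0.28, all below 0.3. The share over all pairs was not redone without those cells. With the number of genes detected taken out (partial rho), the 4 came to 0.31, 0.34, 0.19 and 0.20, in the same order. The mean over the 45 pairs came to 0.07 as partial rho, from 0.14. No partial value is given here for all pairs of genes. The lowest of the 45 pairs was Hk2 with Aldoa, at -0.22. Pairs of genes in consecutive steps averaged 0.16 over 5 pairs and the other 40 pairs 0.14. All points share their libraries and their numbers of genes detected, and 3 of the 4 pairs include Gapdh.

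Aldoa and Ldha, the highest pair in level, moved together in some sets and not in others. Their rho was 0.67 in T2 and 0.83 in T3, but -0.10 in T1, -0.07 in T4 and 0.09 in T5, over 8 or 12 cells each. Gapdh with Ldha was above 0 in 5 of 5 sets, from 0.08 to 0.45. The transporters Slc2a1 and Slc2a3 had a rho of 0.28.

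**Figure D3:**
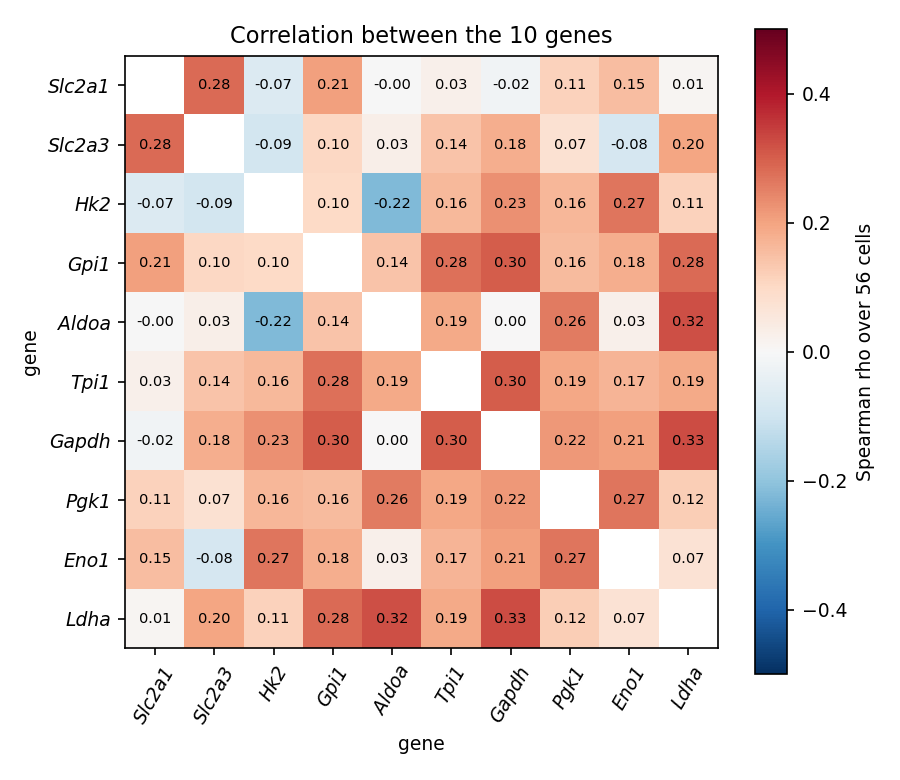
Spearman rho over 56 cells for each pair of the 10 genes, red above 0 and blue below. The values run from -0.22 (Hk2 with Aldoa) to 0.33 (Gapdh with Ldha).

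The 2 genes of highest level are shown with their promoters. Background for the motifs searched: ACGTG on either strand is the core bound by hypoxia-inducible factors, and CACGTG, which contains it, is the E-box bound by Myc with Max. In RefSeq windows from 250 bases before to 50 after a gene's start (GRCm38.p6), 9 of the 10 genes matched; Slc2a3 was not matched. ACGTG was in a window of 6 of the 9 genes, against 21.8% of all genes, and CACGTG in 1 of 9, Ldha, against 8.09%. By window ACGTG was in 7 of 14, 50%, against 19.6% of all windows, with 1 of 2 for Ldha and 2 of 3 for Aldoa. A match is a description of letters, not a site. The window printed is the first listed for its gene and does not stand for the gene's other windows. Below are 1 window of Ldha, with 5 ACGTG matches in capitals (each CACGTG is read on both strands), and 1 of Aldoa, with 0, at chr7:46845554-46845853 on the plus strand and chr7:126800398-126800697 on the minus strand.
Ldha: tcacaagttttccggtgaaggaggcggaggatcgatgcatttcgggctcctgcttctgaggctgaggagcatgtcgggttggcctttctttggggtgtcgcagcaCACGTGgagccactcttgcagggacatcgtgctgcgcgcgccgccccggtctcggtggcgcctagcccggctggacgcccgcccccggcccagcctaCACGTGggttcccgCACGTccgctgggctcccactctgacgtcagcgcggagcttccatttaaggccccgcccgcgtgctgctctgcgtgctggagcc
Aldoa: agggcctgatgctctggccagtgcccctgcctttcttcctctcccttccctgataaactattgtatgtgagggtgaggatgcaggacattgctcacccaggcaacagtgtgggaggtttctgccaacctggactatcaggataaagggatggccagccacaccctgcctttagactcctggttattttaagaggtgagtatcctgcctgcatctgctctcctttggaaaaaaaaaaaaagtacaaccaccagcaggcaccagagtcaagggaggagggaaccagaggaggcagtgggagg

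To relate the genes to cycling and cytokines, each cell was given a score per gene list, the mean of the z-scored log2(TPM + 1) of its members. The glycolysis score ran from -2.06 in T3_2 to 0.97 in T4_5. It followed the number of genes detected in a cell, with a Spearman rho of 0.68 and Pearson's r of 0.58 over 56 cells, so a partial rho that takes this number out is given beside the relations with scores and with the genes named as reaching 0.3.

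The glycolysis score was higher in cells with higher cycling scores, and less so with the number of genes detected taken out. With the G2/M score (46 genes) rho was 0.48 and r 0.43, r was 0.43 without the 2 cells farthest in glycolysis score, and the partial rho was 0.17. With the G1/S score (30 genes) rho was 0.47 and r 0.46, r was 0.43 without those 2 cells, and the partial rho was 0.27. Both were above 0 in 5 of 5 sets, from 0.31 to 0.69 for G2/M and from 0.29 to 0.63 for G1/S. The number of genes detected itself had a rho of 0.55 with the G2/M score and 0.43 with G1/S.

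By gene, 3 of 10 reached 0.3 with G2/M, against 8.6% of all genes, and 0 were at -0.3 or lower, against 0.294%. They were Pgk1 (0.38), Eno1 (0.35) and Tpi1 (0.32). With G1/S 3 of 10 did, against 8.12%, and 0 were at -0.3 or lower, against 0.306%: Ldha (0.38), Tpi1 (0.36) and Gapdh (0.34). The median over the 10 was 0.24 with G2/M and 0.17 with G1/S, beside 0.09 for all genes with each. Ldha kept a partial rho of 0.37 with G1/S, and Aldoa had one of 0.32 with G2/M; for Pgk1, Eno1 and Tpi1 with G2/M the partial values were 0.22, 0.11 and 0.10. For Tpi1 and Gapdh with G1/S they were 0.22 and 0.24. Of single cycling genes, the helicase subunit Mcm5 had a rho of 0.42 with the glycolysis score (partial 0.33), topoisomerase Top2a 0.37 (partial 0.12), the proliferation marker Mki67 0.36 (partial 0.10) and the helicase subunit Mcm2 0.32 (partial 0.295). Cyclin Ccnb1 had 0.25, and Cdk1 and the sliding clamp Pcna had 0.18 each.

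**Figure D4:**
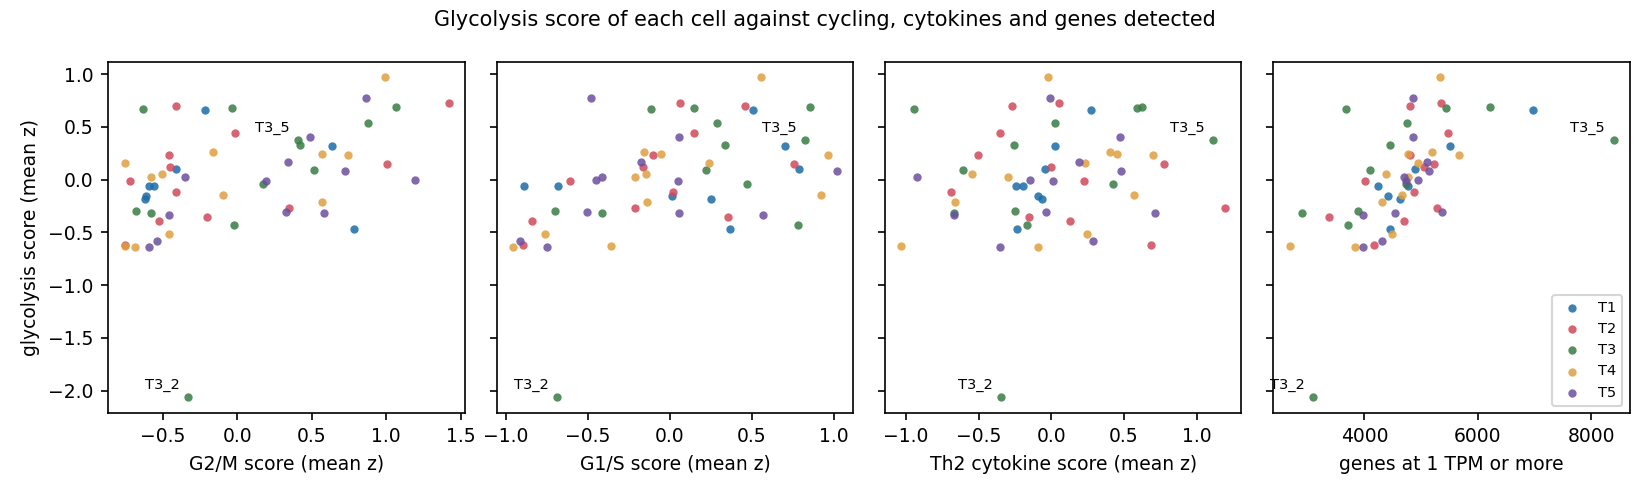
Glycolysis score of each of 56 cells (mean z) against the G2/M, G1/S and Th2 cytokine scores and the number of genes at 1 TPM or more, coloured by set. The score runs with the 2 cycling scores (rho 0.48 and 0.47) and with genes detected (0.68), less with cytokines (0.21), and T3_2 lies apart at -2.06.

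With the Th2 cytokine score (11 genes) the relation was weak and changed sign with the number of genes detected. The rho was 0.21 and r 0.16, r was 0.14 without the 2 farthest cells, and the partial rho was -0.24. By set it ran from -0.37 in T2 to 0.71 in T1. By gene 1 of 10 reached 0.3, Eno1 at 0.35, against 7.54% of all genes, and 0 were at -0.3 or lower, against 0.267%. As partial rho Eno1 had 0.12, and Gpi1, whose rho was -0.12, had -0.42. With the activation score (22 genes) rho was 0.08, r 0.22 (-0.022 without the 2 farthest cells) and the partial rho -0.34, and by set it ran from -0.21 to 0.86. There 1 of 10 reached 0.3, Slc2a1 at 0.32, against 7.96%, and 1 was at -0.3 or lower, Aldoa at -0.33, against 0.331%. As partial rho Slc2a1 had 0.23 and Aldoa -0.31.

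Single Th2 cytokines reached 0.3 with glycolysis genes about as often as any pair of genes. They were at -0.3 or lower more often, though in only 3 pairs. Of 110 pairs, 4 reached 0.3, 3.64% against 3.11% of all pairs, and 3 were at -0.3 or lower, 2.73% against 0.518%, with a median of 0.04. Il9 ran with Slc2a3 (0.38), Il5 with Ldha (0.35), and Il24 with Aldoa (0.34) and Eno1 (0.32). Il3 ran against Aldoa (-0.37) and Ldha (-0.33), and Csf2 against Gpi1 (-0.32). The partial values of these 7 pairs were 0.34, 0.34, 0.36, 0.31, -0.35, -0.37 and -0.40, in the order named. Il9 and Il5 were in only 13 and 14 cells and Slc2a3 in 10. With the glycolysis score, rho was 0.20 for Il4, 0.12 for Il13, 0.18 for Il10, 0.26 for Il5, 0.18 for Il9, 0.12 for Il24, 0.07 for Areg, 0.01 for Il3, Il31 and Il6, and -0.10 for Csf2; the partial values ran from -0.25 for Csf2 to 0.13 for Il5. Il2, which is not among the 11 and was picked after its value was seen, was in 39 cells and had a rho of -0.27 and a partial rho of -0.36.

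**Figure D5:**
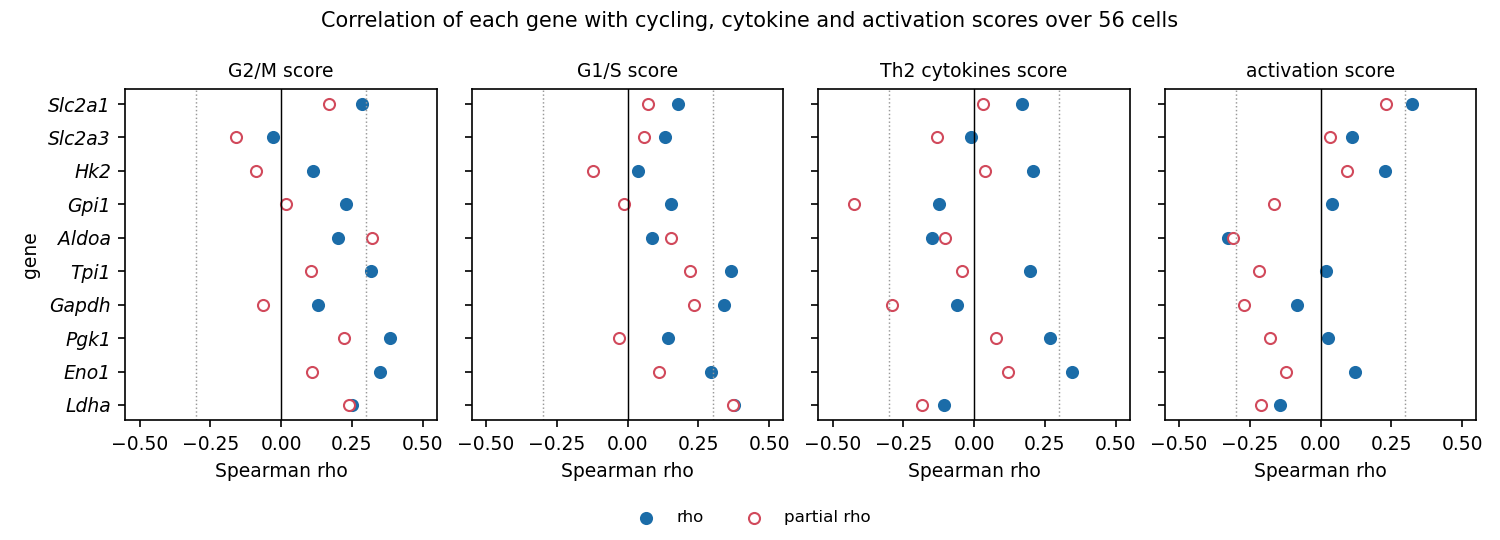
Spearman rho of each gene with the G2/M, G1/S, Th2 cytokine and activation scores over 56 cells (filled), and the partial rho on genes detected (open), with dotted lines at -0.3 and 0.3. Pgk1, Eno1 and Tpi1 pass 0.3 with G2/M, and Aldoa lies at -0.33 with activation.

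Other genes of the pathway also ran from abundant to sparse. Counts of genes at 0.3 with the glycolysis score, here and in the paragraphs that follow, are to be read beside 11.9% of all other genes. Of 7 other genes listed under lower glycolysis, Pkm2, pyruvate kinase, was in 56 cells and averaged 1599 TPM (SD 907). Pgam1, phosphoglycerate mutase, was in 49 at 26.96 TPM (SD 24.6). Pgam1 has 0 of 713 coding words free of a match, so its level is uncertain too. In this list 5 entered: Pgam1, Pgam5, Bpgm, Pkm2 and Ldhb. Of these, 1 reached 0.3 with the glycolysis score, Pgam1 (0.32, partial 0.13). Pkm2 had 0.17 (partial 0.39) and Bpgm, which makes bisphosphoglycerate, was lowest at 0.10. Of 7 genes listed as phosphofructokinase and its regulators 3 entered: Pfkp was in 50 cells at 162.5 TPM (rho -0.13) and Pfkl reached 0.38 (partial 0.37). Of 5 other transporters and hexokinases 3 entered and 0 reached 0.3: Adpgk averaged 56.7 TPM, Hk1 had a rho of 0.21 and Slc2a6 -0.03. Of 4 lactate and pyruvate transport genes, the lactate transporter Slc16a1 reached 0.35 (partial 0.064), its chaperone Bsg averaged 179 TPM, and the pyruvate carrier subunit Brp44 had 0.15. Of 7 pentose phosphate genes, Tkt reached 0.32 (partial 0.074), Taldo1 averaged 136 TPM and Pgls had -0.06.

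The score of 15 regulators of glycolysis had a rho of 0.35 with the glycolysis score and a partial rho of -0.11. Singly 1 of them reached 0.3, the kinase Akt2 at 0.32 (partial -0.026), and Myc, which averaged 394 TPM, had -0.06. Of 7 pyruvate dehydrogenase genes that entered 0 reached 0.3, with Pdhb at 198 TPM and 0.29 and Pdha1 at 0.05.

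Mitochondrial genes gave the largest score relations of the lists scored, but the lists differ in size and the part of size was not tested. By gene, the median rho was 0.21 for oxidative phosphorylation and 0.23 for the tricarboxylic acid cycle. It was 0.22 for lactate and pyruvate transport, which was not scored, and 0.19 for the regulators of glycolysis. Oxidative phosphorylation (75 genes) had a rho of 0.68, r of 0.79 and a partial rho of 0.43. Of its genes 16 reached 0.3, 3 of them also as partial rho. Uqcr10 was at 0.52 (partial 0.46), Ndufa6 at -0.21 and the most abundant, Cox6a1, at 0.29. Counted by partial rho, 6 of the 75 reached 0.3, and 4 of the 17 tricarboxylic acid cycle genes, beside 171 of all 7861 other genes. The tricarboxylic acid cycle (17 genes) had 0.65, 0.71 and 0.37; Idh3a (0.50), Idh2 (0.36) and Idh3g (0.34) reached 0.3, with partial values of 0.37, 0.19 and 0.375. The most abundant, Mdh2, was just under it at 0.298 (partial 0.376), and Dlst was lowest at 0.08. Both scores had a rho of 0.65 with the number of genes detected. Of 12 housekeeping genes 3 reached 0.3, with the most abundant, Actb, at 0.31 (partial 0.082). For all other genes, 936 of 7861, 11.9%, reached 0.3 and 5, 0.0636%, were at -0.3 or lower, with a median of 0.14; with the partial rho 171 reached 0.3.

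Among genes in at least 28 cells, the pattern most like the glycolysis score was that of Trappc1 (0.70), then Psmc3ip (0.63), Ipo11 (0.62), Ankrd32 (0.59), the enolase copy Gm5506 (0.57), Stra13 and Arpc5l (0.56), and Birc5, Lage3 and Cdc5l (0.55). Each was above 0 in 5 of 5 sets, and their partial values ran from 0.28 to 0.52. The lowest were Appl1 (-0.32), Prrc2c (-0.30), and Cc2d1a, Trpm6 and Pgm3 (-0.29), with partial values from -0.35 to -0.19. Likeness is Spearman's rho over 56 cells, and these genes were picked from 4313 for their value. Their signs by set and partial values come from the same cells, so they give no separate support. Gm5506 shares 70.5% of the words of Eno1, which is in the score, so its place here is not independent of the score.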

How the data were processed

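The deposited values are a score: TPM that the authors rounded to whole numbers, as the whole-number values and the column sums of 999202 to 999914 show. Per the submitters' processing notes, reads were handled with Bowtie 0.12.2, Cufflinks and FastQC on build mm9; no source used here says which tool did what.

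A gene was detected at 1 TPM or more, and genes in at least 10 cells entered. Scores were mean z-scores of log2(TPM + 1). Spearman's rho of at least 0.3 in size was called. All are descriptions with no test, since the 56 cells count as 1 sample. The running median, scores and rho were tested on simulated data, where the limit first set on false calls of excess was missed and was then loosened. Python 3.11.15, numpy 2.4.6, pandas 2.3.3 and scipy 1.17.1 were used.

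Members and lists were chosen with earlier results of these data known. Named were the 10 genes and their copies, the gene with the highest mean, highest rho and lowest rho of each pathway list, all 11 Th2 cytokines, 7 cycling genes, the most and least alike genes, and the cells with extreme scores. Sequences came from GENCODE vM21 and RefSeq. The transcript rule for the copy shares was changed after its values had been seen, and all 3 rules are given.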

Additional observations from a re-analysis of the deposited data

How the results depend on the processing

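The relations with the 2 cycling scores and the mean rho over pairs were above 0 under all 16 alternatives run, which included ranks centred by set, rescaled TPM and leaving out each set, T3_2 and T3_5, or Gapdh. The partial rho on genes detected moved 5 values: G2/M to 0.17, G1/S to 0.27, Th2 cytokines to -0.24, activation to -0.34, and the number of genes at a rho of 0.3 with the glycolysis score to 171. It also took the mean rho over pairs from 0.14 to 0.07, which was not counted as moved. The mean share of cells with each gene was 78.9% at 1 TPM, 72.0% at 5 TPM and 67.5% at 10 TPM, and the median of the 10 mean levels was 155.6 TPM after rescaling, against 138.3 TPM as deposited. Slc2a3, in 10 cells, fell under the 10-cell filter whenever a set was left out, so it has no excess there. The median excess of the genes left was -0.40 without set T2, which is the value of Aldoa. No gene had an excess above 1 (0) on the SD of log2(TPM + 1). Without set T3 none of the genes that entered did (0), and Slc2a3 was not among them. Excess changed sign for Slc2a1 (-0.071 on the SD of log2(TPM + 1), -0.080 without T3), Eno1 (0.14) and Ldha (-0.066), the last 2 on that SD; among genes not called, it also did for Slc2a3 (-0.14) and Hk2 (-0.12) on that SD, and for Aldoa in 3 alternatives (up to 0.19, without T3). The cause was not tested. Leaving out Gapdh, Eno1 and Pgk1 gave a mean rho over pairs of 0.11, and leaving out Slc2a1 and Slc2a3 gave 0.18. Neither was planned before the data were seen. No paired analysis was possible because the cells form 1 group. Depth is unknown, so absence at 0 cannot be told from loss.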
